A study of Mus musculus with 30 samples.

Results

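The BCL2 family genes described here were Bcl2, Bcl2l1, Mcl1, Bcl2l11, Bax, Bak1 and Bcl2l15. They are 7 of the 21631 protein-coding genes on mouse chromosomes 1 to 19 and X, and were taken by name, with earlier results of these data known. Shares of all genes given beside them below are therefore descriptions and not tests. For each gene the H3K4me3 peak length within the gene and 1 kb on either side was measured, together with the tagged HOXA9 sites within 25 kb. Chromatin immunoprecipitation with sequencing (ChIP-seq) of 30 samples from cultured C57BL/6 mouse cells made up the series. The histone lists came from ER-Hoxa9-Lys-GFP cells, in which HOXA9, a homeobox protein that keeps blood progenitors immature and is often high in myeloid leukaemia, is joined to part of the estrogen receptor. Such a fusion works while estradiol (E2) is present.

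The 5 H3K4me3 lists were from cells kept in E2, from cells whose E2 was washed out for 24, 40 or 72 h before 96, 80 or 48 h with E2 added back, and from cells without E2 for 120 h. The names 24 h, 40 h and 72 h below refer to these restored lists. A longer withdrawal came with a shorter return, so the effects of each cannot be told apart. Sites of tagged protein came from V5-ER-Hoxa9-AM cells in E2 (ChIPs titled V5 and AM), from the same line restored after 72 h (V5), and from untreated V5-Hoxa9-AM cells, whose HOXA9 by its name lacks the receptor fusion (V5 and AM). Both AM samples carry V5 as their antibody label. All groups carry an introduced Hoxa9, and no group without it was analysed here. Each list was 1 library, so there is no replicate check and no p-value for any difference below. The lists hold positions without heights, so every H3K4me3 value is a covered length and not an amount of the mark. A length can change with read depth or calling as well as with the mark, and the depth of these libraries is unknown.

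BCL2 family proteins set whether the outer mitochondrial membrane stays intact. BCL2, BCL-XL (from Bcl2l1) and MCL1 keep cells alive by binding pro-death relatives, and MCL1 is a short-lived protein on which neutrophils and their progenitors depend. BAX and BAK, once freed, form pores that release cytochrome c. BIM, from Bcl2l11, is a BH3-only protein that neutralises the survival proteins and is used in the turnover of blood cells after loss of growth factor. BCL2L15, also called BFK, is a less studied relative. H3K4me3 marks the nucleosomes just after the starts of active genes and is usually depleted at the start itself.

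On chromosomes 1 to 19 and X, to which all values here refer, the E2 list held 17497 H3K4me3 peaks, the 24, 40 and 72 h lists 22871, 21329 and 21790, and the 120 h list 23835. The 120 h list covered the most sequence, 17.3 Mb, and the E2 list the least, 10.4 Mb. Among genes marked in E2 or in the list compared with it, the median log2 ratio of peak length over E2 was 0.35, 0.40 and 0.54 in the 24, 40 and 72 h lists and 0.59 at 120 h, with a pseudocount of 50 bp. Values for single genes are read against these shifts. H3K4me3 at 120 h was found at 8 of 8 myeloid progenitor markers, 0 of 4 T cell, 2 of 4 B cell, 2 of 4 erythroid and 1 of 5 fibroblast and epithelial markers. In E2 these counts were 8, 0, 1 (Cd79b), 1 (Klf1) and 0. Of the 8 myeloid markers 3 were longer at 120 h and 5 shorter, from Mpo with 1270 bp at 120 h, against 5894 bp in E2, to Spi1 with 5463 bp at 120 h, against 2339 bp in E2. The part of these shifts in the values below was not tested.

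Promoter sequences are shown for 4 genes, chosen after values were seen. Mcl1 and Bak1 are the members with a tagged HOXA9 site across the annotated start, and capitals mark the bases inside that V5 site of V5-Hoxa9-AM cells. Bcl2l1 is the member with the largest H3K4me3 ratio, and capitals mark the bases before its middle start that lay in the H3K4me3 peak of the E2 list. Bcl2l15 had no H3K4me3 at its start in any list and has no capitals. Each sequence is the 250 bases before the start, read 5′ to 3′ along the gene, from RefSeq on GRCm38.p6 (the build called mm10). The Mcl1 sequence is chr3:95658471-95658720 on the plus strand, that of Bak1 chr17:27028628-27028877 on the minus strand, that of Bcl2l1 chr2:152830718-152830967 on the minus strand and that of Bcl2l15 chr3:103832446-103832695 on the plus strand.
Mcl1: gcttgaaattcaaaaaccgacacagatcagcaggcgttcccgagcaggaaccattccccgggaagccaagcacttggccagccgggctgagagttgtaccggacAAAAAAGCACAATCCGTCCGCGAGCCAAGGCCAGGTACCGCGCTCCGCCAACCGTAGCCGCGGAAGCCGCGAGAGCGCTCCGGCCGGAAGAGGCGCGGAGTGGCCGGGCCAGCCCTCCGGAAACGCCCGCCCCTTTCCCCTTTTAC
Bak1: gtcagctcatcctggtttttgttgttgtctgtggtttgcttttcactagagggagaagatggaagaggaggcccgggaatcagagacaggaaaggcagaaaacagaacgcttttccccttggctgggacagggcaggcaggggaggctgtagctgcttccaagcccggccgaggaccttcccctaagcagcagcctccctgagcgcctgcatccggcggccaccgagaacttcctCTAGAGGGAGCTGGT
Bcl2l1: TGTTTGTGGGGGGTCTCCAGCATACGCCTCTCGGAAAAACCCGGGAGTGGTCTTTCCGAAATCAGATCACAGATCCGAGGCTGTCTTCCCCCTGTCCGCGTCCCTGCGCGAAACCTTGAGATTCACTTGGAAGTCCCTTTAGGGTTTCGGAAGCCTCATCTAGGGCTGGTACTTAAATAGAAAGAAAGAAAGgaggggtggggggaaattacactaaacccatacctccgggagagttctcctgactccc
Bcl2l15: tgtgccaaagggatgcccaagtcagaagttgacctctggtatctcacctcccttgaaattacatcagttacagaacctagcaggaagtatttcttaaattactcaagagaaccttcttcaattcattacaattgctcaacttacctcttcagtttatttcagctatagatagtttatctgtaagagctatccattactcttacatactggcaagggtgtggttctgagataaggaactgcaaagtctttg

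The V5 site covered 146 of the 250 bases before the Mcl1 start and 15 of those before the Bak1 start. In Bcl2l1, 192 bases lay in the E2 peak. The promoters differ in CpG content, a known correlate of H3K4me3. In windows of 300 bases (250 before the start and 50 after it), Bcl2l15 had 0 CpG dinucleotides and a GC content of 38.3%, against 33 CpG and 65.7% in Mcl1 and 44 CpG and 76% in Bcl2. Bak1 had 11 CpG and Bax 19, and the starts of Bcl2l11 had 27 and 38. The middle start of Bcl2l1 had 14 and its other starts 22 and 1. The median of 21045 promoter windows was 13 CpG.

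All 7 genes had H3K4me3 within the gene or 1 kb of it in all 5 lists, where 46% of all genes did. List by list, all 7 were marked where the share of all genes was 47.1% in E2, 50.7%, 50.5% and 51.4% in the 24, 40 and 72 h lists, and 53.2% at 120 h. In 6 genes the mark lay within 1 kb of an annotated start in every list. Of the 17274 genes with an annotated start, 45.1% had the mark there in E2, 47.8%, 47.6% and 48.7% in the 24, 40 and 72 h lists, and 50.2% at 120 h. Bcl2l15 was the exception, 1 of the 49.1% of genes with no mark within 1 kb of a start in any list. Among genes with H3K4me3 in all 5 lists such genes were 4.35%.

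**Figure D1:**
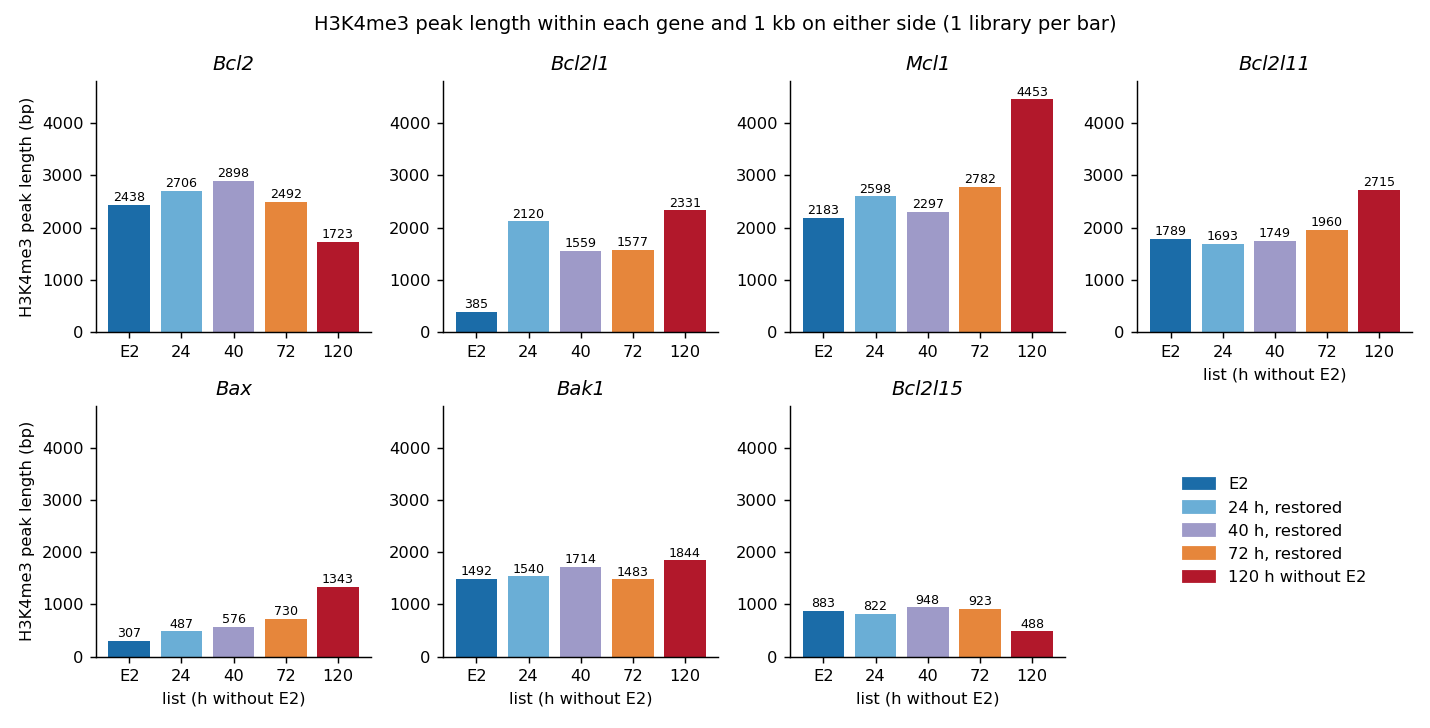
H3K4me3 peak length in bp (y axis) within each of 7 BCL2 family genes and 1 kb on either side, in 5 lists (x axis: E2, then hours without E2, with E2 restored at 24, 40 and 72 h); each bar is 1 library. Mcl1 reaches 4453 bp and Bax 1343 bp at 120 h, Bcl2l1 is low in E2 alone (385 bp), and Bcl2 and Bcl2l15 are lowest at 120 h (1723 and 488 bp).

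At 120 h, 5 of the 7 genes had a longer H3K4me3 cover than in E2 and 2 a shorter one, where 85.2% of all genes marked in E2 or at 120 h were longer and 14.7% shorter. Bcl2l1, Bax and Mcl1 were 2-fold or more longer, which 32.6% of all genes were, and no member was 2-fold shorter, which 1.35% were. The median log2 ratio of the 7 genes was 0.59, the same to 2 decimals as that of all genes. Relative to the median of all genes, Bcl2l1 (1.86), Bax (1.37) and Mcl1 (0.42) lay above it, and Bcl2l15 (-1.39), Bcl2 (-1.08) and Bak1 (-0.30) below. Bcl2l11 lay at it, with a difference of -0.00471. As a group the genes thus stood where all genes stood, and they differed widely among themselves.

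**Figure D2:**
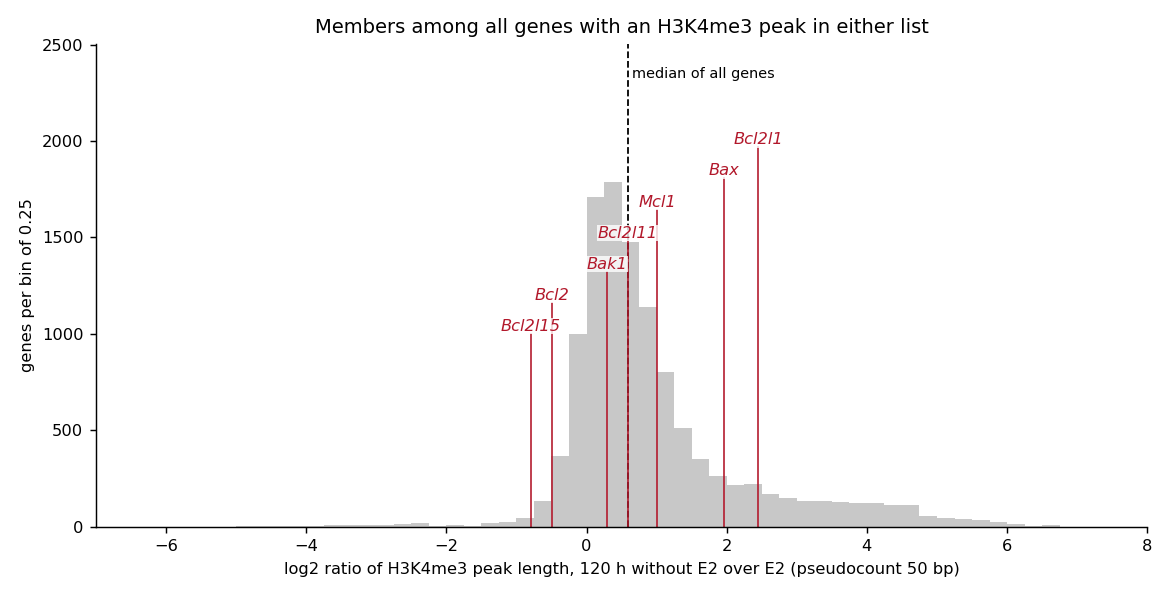
Number of genes (y axis) by log2 ratio of H3K4me3 peak length, 120 h without E2 over E2 (x axis, bins of 0.25, pseudocount 50 bp), over 11594 genes with a peak in either list; red lines mark the 7 BCL2 family genes and their heights carry no value. Bcl2l15 (-0.79) and Bcl2 (-0.49) lie in the left tail, and Bax (1.96) and Bcl2l1 (2.45) in the right.

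Among the survival genes, Bcl2 and Mcl1 went opposite ways at 120 h. Bcl2 (chromosome 1, 106538176 to 106714290, minus strand) had 2438 bp of H3K4me3 in E2, 2706, 2898 and 2492 bp in the 24, 40 and 72 h lists, and 1723 bp at 120 h. It was thus lowest at 120 h, as were 12.8% of the 9956 genes with a peak in all 5 lists, and all 4 lists with E2 at harvest lay above it. The log2 ratio of 120 h over E2 was -0.49, and 3.00% of all genes had a lower one. The 24, 40 and 72 h lists gave log2 ratios of 0.15, 0.24 and 0.03, each below the median of all genes.

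The shorter cover of Bcl2 lay away from its start. Between 2 and 3 kb after the start, peaks covered 732 bp in E2, 823, 602 and 331 bp in the 24, 40 and 72 h lists, and 0 bp at 120 h. Between 1 and 2 kb the cover was 741 bp in E2, 723, 920 and 930 bp in the 24, 40 and 72 h lists, and 435 bp at 120 h. In the kilobase right after the start it was 725 bp in E2, 740, 850 and 867 bp in the 24, 40 and 72 h lists, and 864 bp at 120 h. The cover right after the start was thus not shorter at 120 h than in E2. With only the wider of each list's peaks (above their median), the log2 ratio for the gene was -1.04, and scaled to total cover it was -1.23. The last peak base lay 1671 bases after the start at 120 h and 2910 bases after it in E2. Counted within 1 kb of each gene end, Bcl2 was higher at 120 h, with a log2 ratio of 0.40.

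Mcl1 (chromosome 3, 95656944 to 95663179, plus strand) had 2183 bp in E2, 2598, 2297 and 2782 bp in the 24, 40 and 72 h lists, and 4453 bp at 120 h. The 120 h list stood apart from the other 4, which ended at 2782 bp. Its ratio to E2 was 2.04, or 1.01 on the log2 scale with the pseudocount, just past the 2-fold line. With lists scaled to equal total cover the log2 ratio was 0.27, and with a pseudocount of 200 bp 0.97, neither past it. Of the 1848 genes with 1500 to 2500 bp in E2, the class that holds Mcl1, Bcl2 and Bcl2l11, 6.01% were 2-fold or more longer at 120 h and 29.8% were shorter, against 1 (Mcl1) and 1 (Bcl2) of these 3.

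At 120 h the Mcl1 cover was longer on both sides of the start and beyond the peak that follows it. The peak before the start covered 308 bp in E2, 481, 437 and 470 bp in the 24, 40 and 72 h lists, and 685 bp at 120 h. The main peak after the start began 789 bases from it in E2, 610, 847 and 445 bases from it in the 24, 40 and 72 h lists, and 74 bases from it at 120 h. From 3 to 4 kb after the start, the 120 h list had 721 bp and the other 4 lists 0 bp. From 4 to 5 kb it had 321 bp and the others 0 bp. The added peaks at 120 h lay inside the gene, toward its far end.

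Bcl2l1 (chromosome 2, 152758732 to 152833803, minus strand) was the survival gene with the lowest cover in E2. It had 385 bp in E2, 2120, 1559 and 1577 bp in the 24, 40 and 72 h lists, and 2331 bp at 120 h. Bcl2l1, Mcl1 and Bax were lowest in E2, as were 67.2% of the genes marked in all 5 lists. For Bcl2l1 the E2 list alone was low, and the restored lists were 4.05 to 5.51 times longer than it, nearly as far as the 120 h list (6.05 times). The log2 ratio of 120 h over E2 was 2.45, and 87.4% of all genes had a lower one. Large ratios are common where E2 cover is short: of the 1620 genes with 200 to 500 bp in E2, 63% were 2-fold or more longer at 120 h. Within 1 kb of the gene's ends, which leaves out these starts, Bcl2l1 had no peak in E2 or at 120 h and a log2 ratio of 0.

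The longer Bcl2l1 cover lay around its first and middle starts and at a second region. In E2 a single peak lay between the first start and the middle one, 568 to 952 bases after the first. From 1 to 2 kb after the first start, peaks covered 0 bp in E2, 726, 615 and 429 bp in the 24, 40 and 72 h lists, and 830 bp at 120 h. No list had a peak over the third start, the one with a single CpG in its window. A separate region inside the gene, 42121 to 43168 bases after the first start (chromosome 2, 152788560 to 152789607), held 0 bp in E2, 365, 264 and 337 bp in the 24, 40 and 72 h lists, and 517 bp at 120 h. The nearest annotated start of Bcl2l1 was 38882 bases from the 120 h peak there.

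**Figure D3:**
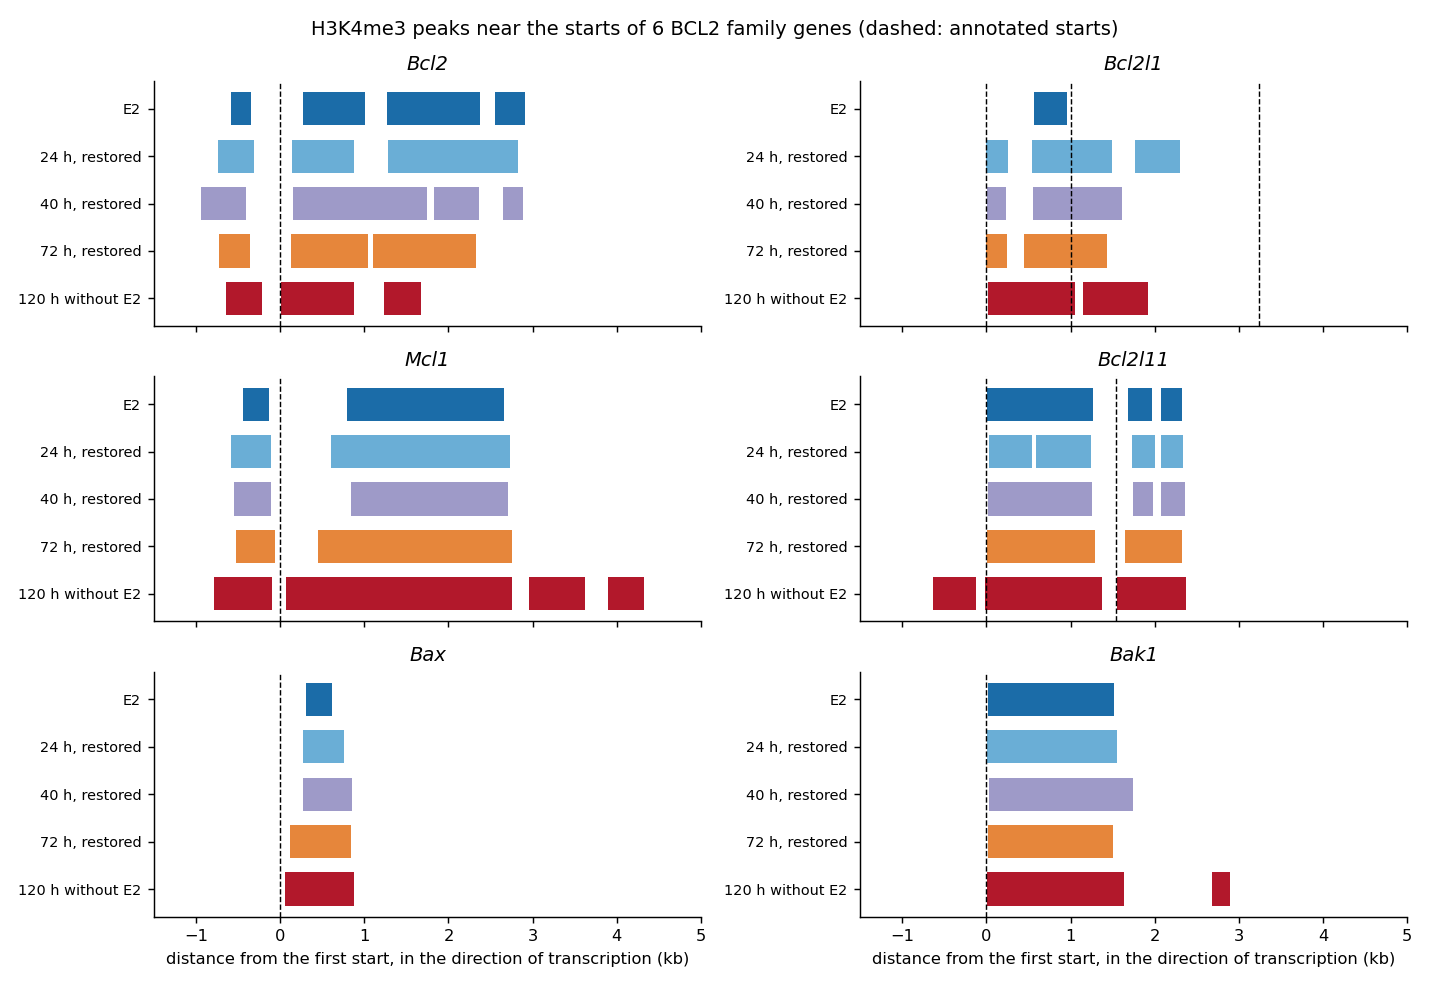
H3K4me3 peaks (bars, drawn to scale) by distance from the most upstream annotated start in kb (x axis, in the direction of transcription) for 6 genes, with 1 row per list and dashed lines at annotated starts. At 120 h Bcl2 has no cover beyond 2 kb and Mcl1 has added peaks after its main one, and the E2 list has a single peak at Bcl2l1.

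Of the pro-death genes, Bax and Bcl2l11 had their longest cover at 120 h and Bak1 hardly varied. Bax (chromosome 7, 45461695 to 45466903, minus strand) had 307 bp in E2, 487, 576 and 730 bp in the 24, 40 and 72 h lists, and 1343 bp at 120 h. It was longer at each step of the series, a pattern shown by 11% of the 9956 genes with a peak in all 5 lists. The log2 ratio to E2 was 0.59, 0.81 and 1.13 in the 24, 40 and 72 h lists and 1.96 at 120 h. Like Bcl2l1, Bax was among the genes with 200 to 500 bp in E2, of which 63% were 2-fold or more longer at 120 h. Part of the 120 h value lay away from the Bax start. A peak of 1164 bp just upstream of the start of Ftl1, the ferritin light chain gene, reached 527 bp into the Bax window. In the 40 and 72 h lists that region held 450 and 236 bp, all outside the Bax window.

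With the peak at its own start alone, Bax covered 816 bp at 120 h, against 307 bp in E2, a ratio of 2.66. This peak began 304 bases after the start in E2, 270, 275 and 116 bases after it in the 24, 40 and 72 h lists, and 61 bases after it at 120 h. In none of the lists did it reach the start or the promoter window before it. Ftl1 with 1 kb on either side had 3260 bp at 120 h, against 1611 bp in E2.

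Bcl2l11 (chromosome 2, 128126038 to 128162547, plus strand) had 1789 bp in E2, 1693, 1749 and 1960 bp in the 24, 40 and 72 h lists, and 2715 bp at 120 h. The 120 h list lay above the 4 lists with E2 at harvest. With each list limited to its 17497 widest peaks, the log2 ratio over E2 was -0.61 at 24 h and -0.52 at 40 h, against -0.08 and -0.03 with all peaks. The log2 ratio of 120 h over E2 was 0.59, equal to the median of all genes, and with lists scaled to equal total cover it was -0.15. A peak before the first start, 633 to 121 bases upstream, was present at 120 h only. The gene model of Acoxl, on the same strand, ends at base 128126252 inside Bcl2l11, so that upstream peak also lay over Acoxl.

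Bak1 (chromosome 17, 27019812 to 27028627, minus strand) had 1492 bp in E2, 1540, 1714 and 1483 bp in the 24, 40 and 72 h lists, and 1844 bp at 120 h. Its highest value was 1.24 times its lowest, the narrowest range of the 7 genes, and the 72 h cover was 0.994 times that in E2. A small peak of 215 bp inside the gene at 120 h made up most of the difference from E2, and the peak at the start covered 1629 bp at 120 h and 1492 bp in E2. Bak1 lies within the gene model of Ggnbp1 on the other strand, and ChIP-seq cannot assign these peaks to either gene. Scaled to equal total cover, the log2 ratio of 120 h over E2 was -0.44 for Bak1, against 0.30 unscaled.

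Bcl2l15 (chromosome 3, 103831036 to 103854618, plus strand) carried its H3K4me3 more than 20 kb after its start. The cover was 883 bp in E2, 822, 948 and 923 bp in the 24, 40 and 72 h lists, and 488 bp at 120 h. The 120 h list lay below the 4 lists with E2 at harvest. The log2 ratio of 120 h over E2 was -0.79, and 1.65% of all genes had a lower one. The 120 h peaks were narrow: counting only peaks wider than their list's median, Bcl2l15 had none at 120 h, a log2 ratio of -4.22. All peaks lay between 20113 and 21360 bases after the start, near the far end of the gene.

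The peak stood close to the edge of a window drawn around the gene end. Within 1 kb of that end it covered 98 bp in E2, 265, 138 and 216 bp in the 24, 40 and 72 h lists, and 0 bp at 120 h. At 120 h the last peak base lay 69 bases short of that window, so an absence there reflects the window as well as the peak. The first listed start of Ptpn22, a phosphatase gene of immune cells, lay 6079 bases beyond the last peak base of the E2 list. The gene model of Ptpn22 begins nearer to the peak, at base 103856575. Within 1 kb of the listed Ptpn22 start, H3K4me3 covered 621 bp in E2, 1519, 1690 and 1637 bp in the 24, 40 and 72 h lists, and 1529 bp at 120 h. The E2 list alone was thus low there.

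The restored lists were each set against the same E2 list, so they are not independent. At 24 h, 5 members were longer than in E2 and 2 shorter (83.3% and 16.6% of all genes), and Bcl2l1 alone was 2-fold longer (17.2%). At 40 h, 6 were longer and 1, Bcl2l11, shorter (88.7% and 11.2%), and again Bcl2l1 alone was 2-fold longer (17.9%). At 72 h, 6 were longer and 1, Bak1, shorter (93.4% and 6.5%), with Bcl2l1 and Bax 2-fold longer (24.8%). With a pseudocount of 200 bp the log2 ratio of Bax at 72 h was 0.88, under the line. No member was 2-fold shorter at any of these times, where 1.08%, 0.9% and 1.09% of all genes were. In each restored list only Bcl2l1 and Bax lay above the median of all genes.

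Between 120 h and 72 h, the log2 ratio was 0.84 for Bax, 0.67 for Mcl1, 0.55 for Bcl2l1, 0.46 for Bcl2l11 and 0.31 for Bak1. It was -0.52 for Bcl2 and -0.85 for Bcl2l15. Bcl2 and Bcl2l15 were the genes with less cover at 120 h. At 72 h with restored E2 their cover was close to that in E2, with ratios of 1.02 and 1.05. Relative to the median of all genes at 72 h, both still lay below it, with log2 differences of -0.51 and -0.48. For Bcl2l15 the direction at 72 h turned with each list limited to its widest peaks, where the log2 ratio was -0.26 at 72 h and -0.59 at 24 h. Mcl1 and Bcl2l11 had ratios of 1.27 and 1.10 at 72 h, below their 120 h ratios of 2.04 and 1.52.

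Tagged HOXA9 without the receptor fusion was found near every member. The V5 list from V5-Hoxa9-AM cells had a site within 25 kb of 7 of the 7 genes, where 44% of all genes had one. It held 20 sites near them, of which 11 lay inside the genes. The AM list of the same cells had 7 sites near 4 of the genes (Bcl2, Bcl2l1, Mcl1 and Bcl2l15), where 26.4% of all genes had one. Of the 7 AM sites, 6 had exactly the start and end of a V5 site, and 91.5% of all AM sites did. Whether these lists were called separately is not known, so a site in both is not independent support. In V5-ER-Hoxa9-AM cells no member had a site in the V5 list in E2 (5.54% of all genes), the V5 list at 72 h (1.71%) or the AM list in E2 (1.02%). Those lists were short, with 1417, 387 and 258 sites, against 17006 in the V5 list and 6773 in the AM list of V5-Hoxa9-AM cells. Their coordinates alone did not settle their genome build, which was taken as mm10. The nearest E2 V5 site was 62.7 kb from Bcl2l11, 172 kb from Bak1 and more than 300 kb from each of the other genes.

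Bcl2 had the most sites, 10 in the V5 list and 4 in the AM list. The V5 list had a site within 25 kb of 61.6% of the 2427 genes of 100 kb or more, the class that holds Bcl2. Of all genes, 0.462% had 10 or more V5 sites, and of those long genes 3.67% did. Per 100 kb of window, Bcl2 had 4.42 sites and Mcl1 5.33, against 1.00 over all genes. The other 5 genes had between 0.80 (Bcl2l1) and 2.72 (Bcl2l15). All 10 sites at Bcl2 lay over 18 kb from its start, with 7 inside the gene and 3 beyond its far end. The widest, 1785 bp (chromosome 1, 106526750 to 106528534), lay 9641 bases beyond that end and was in both lists, as were the sites 20207 and 22103 bases beyond it and the one nearest the start (chromosome 1, 106695740 to 106696061). None of the 10 overlapped H3K4me3 at 120 h or in E2, and 1 did in the 24 h list, over 170 bp.

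**Figure D4:**
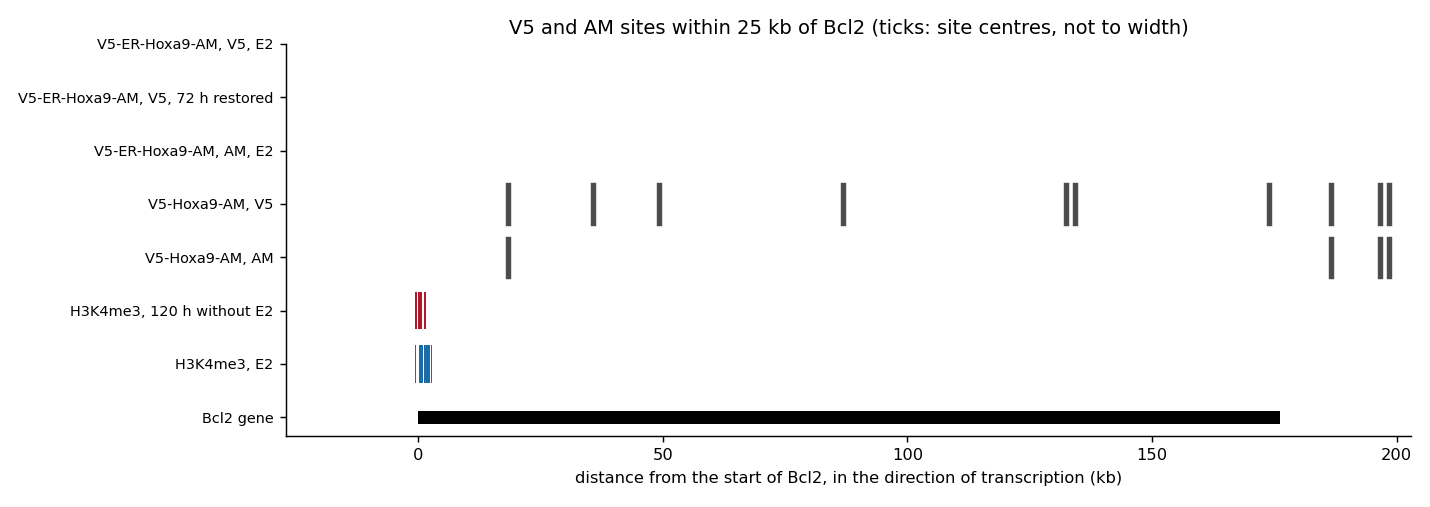
V5 and AM sites within 25 kb of Bcl2 by distance from its start in kb (x axis, in the direction of transcription), with 1 row per list, H3K4me3 peaks at 120 h without E2 and in E2, and the gene as a black bar; ticks mark site centres. The 10 V5 sites and 4 AM sites of V5-Hoxa9-AM cells lie away from the H3K4me3 at the start, and the rows of V5-ER-Hoxa9-AM cells are empty.

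Sites at starts were found for Mcl1 and Bak1, in the V5 list but not in the AM list of the same cells. At Mcl1 a V5 site of 219 bp (chromosome 3, 95658575 to 95658793) spanned the start and lay mostly in the gap between its H3K4me3 peaks. A V5 site of 315 bp, also absent from the AM list, lay 731 bases after the start. It was inside the main H3K4me3 peak, with 315 bp covered at 120 h, against 257 bp in E2. The third Mcl1 site, 322 bp wide and 6007 bases upstream of the gene, was in both the V5 and AM lists. At Bak1 the site of 187 bp (chromosome 17, 27028456 to 27028642) spanned the start. A V5 site overlapped the promoter window of 6.48% of genes with an annotated start. At Bcl2l1 an AM site of 209 bp (chromosome 2, 152830985 to 152831193) lay 268 bases from the middle start, over the H3K4me3 peak, and was not in the V5 list.

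The remaining sites were farther off, and some lay nearer to other genes. The V5 site of Bcl2l1 was 16659 bases beyond the far end of the gene, and nearer to the coding gene Id1 (chromosome 2, 152736251 to 152737410). Bcl2l11 had a site 14221 bases upstream, inside Acoxl, and another inside the gene 25984 bases from a start. The Bax site was 21724 bases upstream and inside Tulp2 and Dhdh. Both V5 sites of Bcl2l15 lay inside Ptpn22. Of these, 1 was 591 bp wide, was also in the AM list and spanned an annotated start of Ptpn22. H3K4me3 covered 0 bp of that site in E2, 443, 401 and 591 bp in the 24, 40 and 72 h lists, and 591 bp at 120 h. Among annotated starts of protein-coding genes, the nearest was that of the member for 16 of the 20 V5 sites. Starts of noncoding genes were not counted, such as that of Gm41928, which holds the widest Bcl2 site. Nor were coding genes with no listed start, such as Id1. As windows of neighbouring genes overlap, a site within 25 kb of a gene is not thereby assigned to it.

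Letters of known motifs were searched for in the 300 bases of each of the 10 annotated promoter windows, on both strands. The HOX-PBX motif TGATTTAT was in 0 of 10 windows, against 0.822% of all promoter windows, and the cAMP response element TGACGTCA in 0 of 10, against 2.26%. The GC box GGGCGG was in 5 of 10, against 46.7% of all windows, and stood at Bcl2, Bax, Mcl1 and both starts of Bcl2l11. The MEIS motif TGACAG was in 1 window (the third Bcl2l1 start), against 18.3%. The C/EBP motif TTGCNNAA was in 1 window (Bcl2l15), against 10.3%. The PU.1 motif GAGGAAGT was in 1 window, against 3.15%. This last match was at Bak1, 22 bases before the start as its reverse complement.

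Other genes of cell death were taken from 4 lists. Of 18 other BCL2 family genes, 12 had H3K4me3 at 120 h and 10 in E2, where 53.2% and 47.1% of all genes did. Of those 12, 5 were 2-fold or more longer at 120 h and 0 shorter by as much (32.6% and 1.35% of all genes), and the median log2 ratio was 0.50, against 0.59 over all genes. Bmf, a BH3-only gene, had 255 bp in E2, 1386, 1174 and 884 bp in the 24, 40 and 72 h lists, and 3257 bp at 120 h. Bbc3 (PUMA), a p53-induced BH3-only gene, had 2126 bp in E2, 3518, 3414 and 4280 bp in the 24, 40 and 72 h lists, and 4641 bp at 120 h. Bnip3, a mitophagy receptor gene, was the member of this list with a lower value at 120 h, 2178 bp, against 3332 bp in E2. Bcl2a1b, a survival gene of the A1 type, had 676 bp at 120 h and 0 bp in the other 4 lists. Its near-identical copies Bcl2a1a and Bcl2a1d had 0 bp in all lists, and reads may be split among the copies, so the call is uncertain. Bcl2l14 had 0 bp in E2, 556, 0 and 437 bp in the 24, 40 and 72 h lists, and 192 bp at 120 h.

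Of 12 apoptosome and caspase genes, 12 had H3K4me3 at 120 h and 11 in E2 (53.2% and 47.1% of all genes), and 1, Endog, was 2-fold longer (32.6%). Endog, a mitochondrial nuclease gene, had 0 bp in E2, 422, 705 and 608 bp in the 24, 40 and 72 h lists, and 836 bp at 120 h. The median log2 ratio of the list was 0.27, against 0.59 over all genes. Apaf1, the apoptosome scaffold gene, covered 1437 bp at 120 h, against 1339 bp in E2. Of 12 genes of inhibitors of apoptosis and death receptors, 11 had H3K4me3 at 120 h and 9 in E2 (53.2% and 47.1% of all genes). Of these genes 6 were 2-fold longer (32.6%), with a median of 1.50, against 0.59 over all genes. Most of the 6 had little or no cover in E2: Xiap and Fas 0 bp, Fadd 232 bp, Birc3 377 bp and Tradd 459 bp. Of all genes with 200 to 500 bp in E2, 63% were 2-fold or more longer at 120 h. Birc3 (cIAP2) had 377 bp in E2, 367, 1110 and 1316 bp in the 24, 40 and 72 h lists, and 2703 bp at 120 h. Tnfrsf1a, the tumour necrosis factor receptor gene, had 1055 bp in E2, 1688, 1411 and 2158 bp in the 24, 40 and 72 h lists, and 4432 bp at 120 h. Xiap had 0 bp in E2, 705, 999 and 827 bp in the 24, 40 and 72 h lists, and 224 bp at 120 h, and Fas 228 bp at 40 h and at 120 h and 0 bp in the other lists. All 5 p53 pathway genes had H3K4me3 in every list (46% of all genes), and at 120 h 0 were 2-fold longer (32.6%), with a median of 0.47, against 0.59 over all genes.

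**Figure D5:**
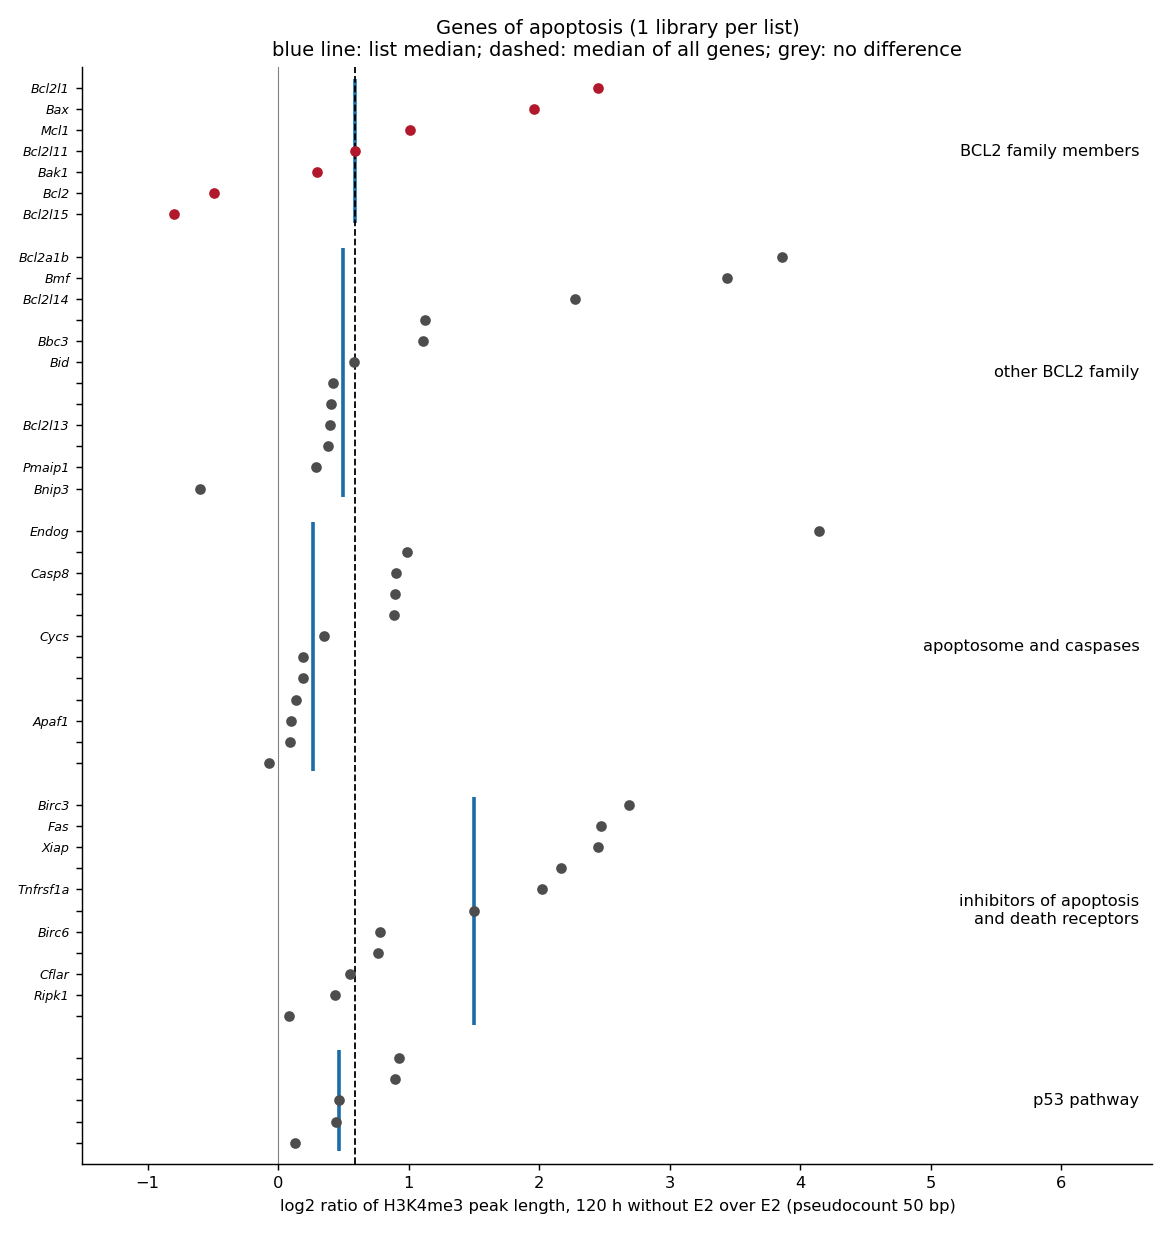
Log2 ratio of H3K4me3 peak length, 120 h without E2 over E2 (x axis, pseudocount 50 bp), for each gene with a peak in either list, in 5 lists from top to bottom, with names for genes described in the text; 1 library per condition. The 7 BCL2 family members (red) run from -0.79 for Bcl2l15 to 2.45 for Bcl2l1. The list of inhibitors of apoptosis and death receptors has the highest median (1.50), with short or no E2 cover at several of its genes.

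Sites of the V5-Hoxa9-AM V5 list lay within 25 kb of 9 of the 18 other BCL2 family genes, 7 of the 12 apoptosome and caspase genes, 8 of the 12 inhibitor and receptor genes and 4 of the 5 p53 pathway genes (44% of all genes). By number of sites they were led by Bcl2l13 with 8, Bid with 6, Pmaip1 with 6 and Cflar with 5. Bok and Birc6 had 4 each, and Bmf, Apaf1, Tnfrsf1a and Ripk1 3 each. Some of these genes had sites in the E2 V5 list of V5-ER-Hoxa9-AM cells: 2 of 18, 2 of 12, 2 of 12 and 0 of 5 (5.54% of all genes). Of the 7 members 0 had one, which at so low a share does not set them apart. Pmaip1 (NOXA), Hrk, Cycs, Casp8, Birc6 and Ripk1 had 1 such site each. The difference between the members and these lists was not tested.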

How the data were processed

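The files used were 10 deposited peak lists (5 H3K4me3, 3 V5, 2 AM), each with chromosome, start and end and no score or height. The submitters' processing notes name Bowtie2 2.0, BWA, MACS2 2.0 and the builds mm9 and mm10. How these pair with the lists, and the peak threshold, is not given in the sources used here. In the E2 list 68.0% of H3K4me3 peaks lay within 1 kb of a GRCm38.p6 start, against 5.72% with all peaks moved by 100 kb, and for V5 sites of V5-Hoxa9-AM cells the shares were 11.4% and 3.52%. These lists were therefore taken as mm10. The short V5-ER-Hoxa9-AM lists gave little contrast (5.29% and 3.46% for V5 in E2). The 11 H3K27ac and H3K27me3 lists were not used here, since their coordinates appeared to be mm9.

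Covered length and site counts were computed with Python 3.11.15 and pandas 2.3.3, tested on simulated peaks, over protein-coding genes of the RefSeq table. Ratios used log2 with a pseudocount of 50 bp, and a call meant 2-fold. The members and gene lists were chosen with earlier results of these data known. Named genes were all 7 members, list genes whose marked state differed between H3K4me3 lists, and up to 12 with most V5 sites, some of which are not reported here. Bmf, Bbc3, Bnip3, Birc3, Tnfrsf1a and Apaf1 (H3K4me3), the genes with E2 V5 sites, the motifs and the printed promoters were chosen after values were seen. Only a listed start's window of 300 bases was searched.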

Additional observations from a re-analysis of the deposited data

How the results depend on the processing

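Under the windows and peak filters tried, 5 to 7 of the 7 genes had H3K4me3 in each list. At 120 h over E2, 2 or 3 genes were 2-fold longer. Mcl1 dropped below with a pseudocount of 200 bp (0.97) and after scaling to total cover (0.27). With windows at the gene ends Bcl2l1 dropped to 0, and Mcl1 gave 3.68. The number of shorter genes moved from 2 to 1 with windows at the gene ends and to 4 after scaling to total cover. Directions reversed for Bcl2 at the gene ends (0.40), and after scaling for Bcl2l11 (-0.15) and Bak1 (-0.44). With lists limited to their 17497 widest peaks, 2 genes instead of 1 were shorter at 72 h, where Bcl2l15 reversed (-0.26), and a pseudocount of 200 bp left 1 gene 2-fold longer at 72 h. Within 100 kb, the E2 V5 list had 1 site at 1 gene and the V5-Hoxa9-AM V5 list 40 sites. The AM list had 11 sites within 50 kb and 14 within 100 kb. With the 258 widest sites per list, the V5 and AM lists of V5-Hoxa9-AM cells each had 1 site at 1 gene. Apart from windows and scaling, which set the cause by construction, the cause was not tested. No paired analysis was possible because each condition had 1 library. With no heights or depths, a longer cover cannot be told apart from a more sensitive list.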
